A study of Homo sapiens with 6 samples.

Results

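The genes described here are the 10 genes of the circadian clock loop named PER1, PER2, PER3, CRY1, CRY2, NR1D1, NR1D2, ARNTL (the gene of the protein BMAL1), DBP and TEF. They were found by their gene symbol in a table of 17918 genes, and all 10 were present and passed the filter on low counts, among 12612 genes that did. They were chosen by measured values, namely their difference between the shCRIP1 and shScramble libraries described below, so those values are a description and carry no test. RNA sequencing was performed on KMS11, an established human line of multiple myeloma, a tumour of the plasma cells that make antibodies. In 3 libraries (shCRIP1) the cells carried a short hairpin RNA directed at CRIP1, a gene for a short protein with a LIM domain. In the other 3 (shScramble) they carried a scrambled hairpin, and the labels give their genotype as WT. All cells were grown in RPMI medium with 10% serum and the labels list no further treatment. The number of hairpins or clones behind each group, the hour of harvest and any synchronisation of the cells are not given in the sources used here. Each library is thus a pool of cells at 1 unstated time, in which fewer cells expressing a gene and less RNA of it per cell cannot be told apart.

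The circadian clock of mammals is a transcriptional feedback loop. BMAL1 and its partner CLOCK bind E-box elements and switch on the PER and CRY genes, whose proteins return to the nucleus and repress BMAL1 and CLOCK. A second arm runs through the nuclear receptors REV-ERB alpha and beta (NR1D1 and NR1D2), which repress ARNTL at ROR elements, where ROR receptors activate. A further arm consists of DBP, TEF and HLF, activators of the PAR bZIP family that bind D-box elements, where NFIL3 represses. In cells of the B lineage, as in most tissues, these genes are expressed, and in a culture that is not synchronised single cells run out of phase.

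All members but DBP had, in a promoter window, a match to an element through which the loop is described to run. RefSeq windows (GRCh38.p14) of 300 bases, from 250 before to 50 after an annotated transcript start, were matched to all 10 members and gave 15 windows. The E-box (CACGTG, the same on both strands) was in 4 of 15 windows (26.7%), against 7.26% of 35116 windows of all genes, and belonged to PER1, NR1D2 and TEF. The E'-box (CACGTT) was also in 4 windows (26.7%), of PER2, CRY1, CRY2 and NR1D1, against 5.34% of all windows. The D-box (TTATGTAA or TTATGCAA) was in 3 windows (20%), of PER1, PER3 and NR1D2, against 1.71%. The ROR element (TAGGTCA or TGGGTCA) was in 3 windows (20%), of CRY2, NR1D2 and ARNTL, against 5.69%. The cyclic AMP element TGACGTCA was in none of the 15 and in 1.85% of all windows. Each motif was searched on both strands, no match overlapped a match of another motif, and a match describes letters in a window rather than a bound site. DBP had no match to any of these motifs within its window. The windows below are shown because together they hold each kind of element, with motif matches in capitals. They give the 250 bases before a start, and for ARNTL 24 bases after it that surround its match to the ROR element.
PER1, chr17:8152405-8152654, minus strand: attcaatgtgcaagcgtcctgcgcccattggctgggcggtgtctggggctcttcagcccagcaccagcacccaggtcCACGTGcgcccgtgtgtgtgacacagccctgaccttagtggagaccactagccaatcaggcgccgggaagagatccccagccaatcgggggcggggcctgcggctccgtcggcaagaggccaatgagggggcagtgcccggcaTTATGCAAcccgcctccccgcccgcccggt
PER3, chr1:7784041-7784290, plus strand: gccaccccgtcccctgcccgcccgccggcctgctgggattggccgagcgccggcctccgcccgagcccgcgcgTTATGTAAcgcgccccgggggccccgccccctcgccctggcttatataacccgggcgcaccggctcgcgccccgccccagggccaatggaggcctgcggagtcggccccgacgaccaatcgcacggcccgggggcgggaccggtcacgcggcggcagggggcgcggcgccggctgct
CRY1, chr12:107093550-107093799, minus strand: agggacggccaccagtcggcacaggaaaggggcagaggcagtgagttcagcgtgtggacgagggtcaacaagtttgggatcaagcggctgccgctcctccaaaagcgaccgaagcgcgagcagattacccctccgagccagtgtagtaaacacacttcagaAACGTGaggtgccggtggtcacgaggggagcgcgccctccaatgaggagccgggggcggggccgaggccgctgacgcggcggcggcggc
NR1D2, chr3:23945871-23946120, plus strand: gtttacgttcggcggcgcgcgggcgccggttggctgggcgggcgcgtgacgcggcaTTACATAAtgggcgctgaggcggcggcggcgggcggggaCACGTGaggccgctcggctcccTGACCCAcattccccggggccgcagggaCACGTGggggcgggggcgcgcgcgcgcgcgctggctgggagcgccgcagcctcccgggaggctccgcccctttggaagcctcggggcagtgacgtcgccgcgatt
ARNTL, chr11:13277812-13277835, plus strand: gcagaaagTAGGTCAgggacggag
TEF, chr22:41367205-41367454, plus strand: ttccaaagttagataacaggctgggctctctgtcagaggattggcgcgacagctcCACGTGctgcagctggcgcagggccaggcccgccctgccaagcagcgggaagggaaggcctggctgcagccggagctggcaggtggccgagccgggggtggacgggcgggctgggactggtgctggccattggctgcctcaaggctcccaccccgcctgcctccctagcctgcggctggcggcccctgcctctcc
In PER1 the capitals mark an E-box 173 bases and a D-box 30 bases before the start. The window of PER3 holds a D-box 177 bases before the start, and that of CRY1 an E'-box, read on the other strand, 89 bases before it. In NR1D2 a D-box, an E-box, a ROR element and a second E-box follow each other from 194 to 105 bases before the start. Its other window, at a different annotated start, holds no match, and neither do the other windows of PER3 and ARNTL. ARNTL has its match to the ROR letters searched 31 bases after the start, and other forms of the element were not searched. TEF has an E-box 195 bases before the start.

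**Figure D1:**
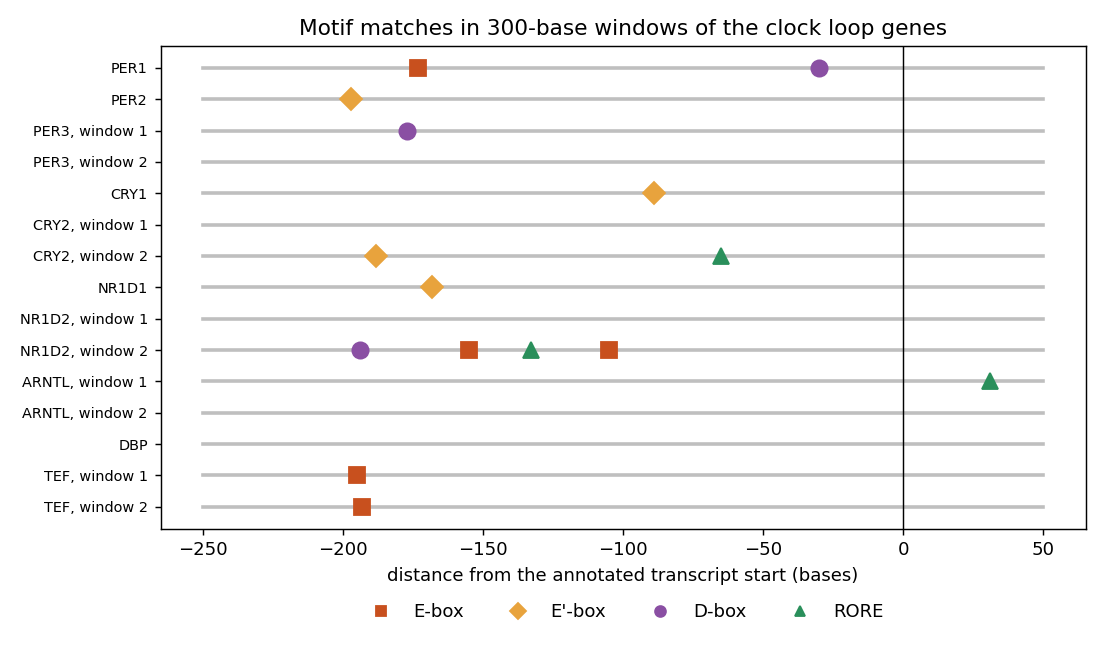
Positions of motif matches (symbols) in the 15 promoter windows of the 10 clock loop genes, by distance in bases from the annotated transcript start (x axis), 1 line per window. The second window of NR1D2 holds 4 matches and DBP holds none.

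The 6 libraries held 16971454 to 18005318 estimated counts, and CRIP1 itself stood at 127 to 134 TPM in shCRIP1 libraries and 2791 to 3327 TPM in shScramble libraries. TPM corrects each gene's abundance for its length and sets the library's sum to a fixed total. The 11 plasma cell and myeloma genes summed to 4797 to 4982 TPM in shCRIP1 libraries and 9402 to 9792 TPM in shScramble libraries, and none was at 0 counts in either group (3 of 10 tested rose, 7 fell). Most of the difference in this sum was JCHAIN, which averaged 1789 TPM in shCRIP1 and 6443 TPM in shScramble. The 3 that rose were TNFRSF17, IRF4 and CD38. Markers of another cell type separated the libraries, and their part in the results below was not tested. The 15 erythroid genes summed to 753 to 762 TPM in shCRIP1 libraries and 3.86 to 5.66 TPM in shScramble libraries, where 13 of the 15 had 0 counts, the globin genes and GATA1 among them. Of 13 erythroid genes tested, 12 rose and 0 fell. Epithelial markers summed to 92.1 to 101 TPM against 22.2 to 25.9 TPM (5 of 8 tested rose, 1 fell), with KRT19 and CLDN7 at 0 counts in shScramble. Myeloid markers summed to 7.18 to 7.84 TPM against 0.94 to 1.27 TPM (2 of 3 rose, 0 fell). Fibroblast and endothelial markers summed to 6.15 to 6.90 TPM against 8.42 to 9.19 TPM (1 of 4 rose, 3 fell), with DCN at 0 counts in both groups. The 1 that rose, COL1A2, had 0 counts in shScramble and 660 over the 3 shCRIP1 libraries (log2 fold change 10.72, SE 0.40). The 3 that fell were COL1A1 (-4.63, SE 0.32), PDGFRB (-2.66, SE 0.11) and PECAM1 (-0.95, SE 0.20). COL1A1 had 189 counts over the shScramble libraries and 8 over the shCRIP1 libraries. T and NK cell markers summed to 1.64 to 2.34 TPM against 0.51 to 0.79 TPM, with none passing the filter. Of these, NKG7 was at 0 counts in both groups, CD3G and GNLY in shCRIP1 and CD3D in shScramble.

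Of the 10 clock genes, 8 were higher and 2 were lower in shCRIP1 at an adjusted p under 0.05 in edgeR's quasi-likelihood test, and 77.6% of all genes tested were called, 39.4% as higher and 38.1% as lower. At 2-fold or more, 6 members were higher and 0 lower, where 10.0% and 8.06% of all genes were. The median log2 fold change was 1.40 over the members and 0.01 over all genes. TPM ranges of the groups were separate for 9 of the 10, 8 with shCRIP1 higher and 1 with it lower, and for 78.5% of all genes, 48.2% with shCRIP1 higher and 30.3% with it lower. No conclusion rests on these counts, because this same contrast led to the choice of the genes. The members had 37 to 2425 estimated counts in a library, so even the rarest, PER3 in shScramble, was above the filter. Replicates are not described as separate cultures, so the spread within a group may be technical.

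**Figure D2:**
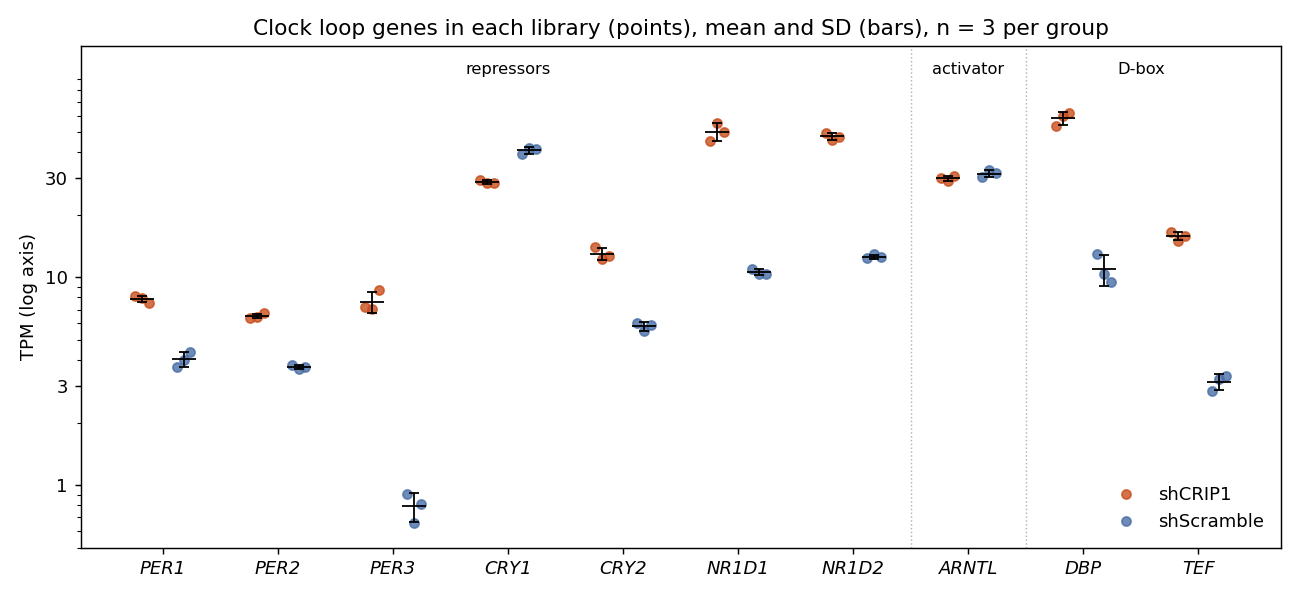
TPM (log axis) of each clock loop gene in each library (points), with the mean and SD of the 3 libraries of a group (bars). The groups are apart for all genes but ARNTL, and only CRY1 and ARNTL have the lower mean in shCRIP1.

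Annotated gene spans (GRCh38, GENCODE 29) place the PER genes on 3 chromosomes, PER1 on chromosome 17 (8140472 to 8156506, minus strand), PER2 on chromosome 2 (238244038 to 238290102, minus strand) and PER3 on chromosome 1 (7784320 to 7845177, plus strand). CRY1 lies on chromosome 12 (106991364 to 107093829, minus strand), while CRY2 (45847118 to 45883248) and ARNTL (13276652 to 13387266) lie on the plus strand of chromosome 11. NR1D2 lies on chromosome 3 (23945260 to 23980618) and TEF on chromosome 22 (41367333 to 41399326), both on the plus strand.

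Within the repressor arm, the 3 PER genes encode the period proteins, which pair with cryptochromes to form the repressor complex. PER3, the member with the largest change, had 7.24, 7.04 and 8.66 TPM in shCRIP1 libraries, against 0.91, 0.66 and 0.81 TPM in shScramble libraries. All 3 shCRIP1 values lay far above the shScramble values, and the fitted difference was 9.17-fold (log2 fold change 3.20, SE 0.12). Behind it stood 411 to 491 estimated counts per shCRIP1 library and 37 to 48.02 per shScramble library, and the coefficient of variation of its TPM was 11.6% in shCRIP1 and 15.9% in shScramble. Adding 1 to the values before taking logs understates a change from so low a level, and on log2(FPKM + 1) the difference was 1.86.

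PER1, which responds to cyclic AMP and glucocorticoids as well as to the clock, had 8.11, 7.96 and 7.54 TPM in shCRIP1 libraries and 3.72, 4.02 and 4.36 TPM in shScramble libraries. Its groups were apart, with a log2 fold change of 0.84 (SE 0.08). PER2 had 6.39, 6.47 and 6.70 TPM in shCRIP1 libraries and 3.80, 3.61 and 3.71 TPM in shScramble libraries. Its groups were also apart, and its log2 fold change was 0.68 (SE 0.07), the smallest of the 8 that were higher. Summed over the family, PER transcripts stood at 22.0 ± 0.76 TPM in shCRIP1 and 8.53 ± 0.308 TPM in shScramble (SD, n = 3 each).

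The make-up of the PER family differed between the groups. PER3 made up 34.6 ± 2.77% of PER transcripts in shCRIP1 and 9.29 ± 1.42% in shScramble (SD, n = 3 each). PER2 made up 29.6 ± 0.472% in shCRIP1 and 43.5 ± 1.65% in shScramble, and PER1 35.8 ± 2.46% and 47.2 ± 2.71%. The 3 genes were thus at similar levels in shCRIP1, where the ranges of PER1 and PER3 overlapped, while PER3 was the scarcest of all 10 members in shScramble.

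The cryptochromes CRY1 and CRY2, the direct repressors of BMAL1 and CLOCK, went in opposite directions. CRY1 had 29.46, 28.31 and 28.61 TPM in shCRIP1 libraries and 39.15, 42.15 and 41.59 TPM in shScramble libraries. Every shCRIP1 value was below every shScramble value, and the log2 fold change was -0.64 (SE 0.05). CRY2 had 13.98, 12.32 and 12.73 TPM in shCRIP1 libraries and 6.01, 5.51 and 5.89 TPM in shScramble libraries, with a log2 fold change of 1.03 (SE 0.08). CRY1 remained the more abundant of the pair in each library, but CRY2 made up 31.1 ± 0.967% of their sum in shCRIP1 and 12.4 ± 0.874% in shScramble. The sum itself moved less, with 43.4, 40.6 and 41.3 TPM in shCRIP1 libraries and 45.2, 47.7 and 47.5 TPM in shScramble libraries.

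**Figure D3:**
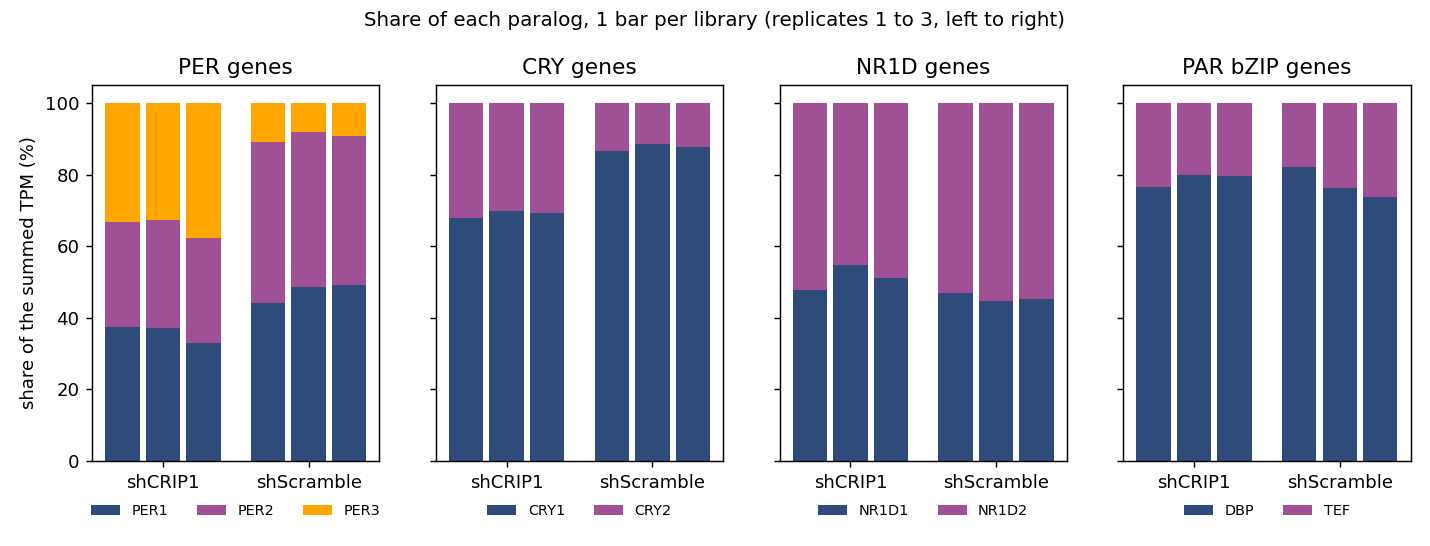
Share of each gene (percent) in the summed TPM of its family, 1 bar per library, for the PER, CRY, NR1D and PAR bZIP genes. PER3 takes 32.8 to 37.8% of the PER sum in shCRIP1 and 7.96 to 10.8% in shScramble, and CRY2 30.3 to 32.2% and 11.6 to 13.3% of the CRY sum.

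The REV-ERB receptors were higher together. NR1D1 had 45.48, 55.19 and 49.97 TPM in shCRIP1 libraries and 10.97, 10.38 and 10.34 TPM in shScramble libraries. The lowest shCRIP1 library stood well above the highest shScramble library, and the fitted difference was 4.33-fold (log2 fold change 2.12, SE 0.07). NR1D2 had 49.69, 45.71 and 47.64 TPM in shCRIP1 libraries and 12.37, 12.91 and 12.52 TPM in shScramble libraries, a 3.43-fold difference (log2 fold change 1.78, SE 0.05). The pair was split nearly evenly in both groups, with NR1D1 at 51.2 ± 3.45% of their sum in shCRIP1 and 45.6 ± 1.26% in shScramble, and its replicate ranges of 47.8 to 54.7% and 44.6 to 47.0% were close but did not overlap.

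Several members overlap other genes in the annotation. NR1D1 (chromosome 17, 40092787 to 40100725, minus strand, GRCh38 as annotated by GENCODE 29) overlaps THRA, the thyroid hormone receptor alpha gene on the plus strand, in 263 exonic bases. No strand setting is given for the counting. NR1D1 and THRA had whole estimated counts in 0 of 6 libraries, so some of their reads were divided between genes. PER1, PER2, CRY1, CRY2, NR1D2, ARNTL and TEF had whole counts in all 6, and PER3 in 5. The part of reads from shared bases in the values was not tested. THRA had 37.16, 38.20 and 36.95 TPM in shCRIP1 libraries and 19.72, 17.66 and 17.70 TPM in shScramble libraries, and rose by 0.53 on the log2 scale in counts (SE 0.05, edgeR adjusted p = 1.36e-08). DBP (chromosome 19, 48630030 to 48637438, minus strand) likewise overlaps SPHK2, the gene of a sphingosine kinase on the plus strand, in 661 exonic bases. SPHK2 averaged 18.4 ± 0.69 TPM in shCRIP1 and 14.4 ± 0.257 TPM in shScramble (SD, n = 3 each; log2 fold change 0.23, SE 0.06, edgeR adjusted p = 0.00291). DBP and SPHK2 also had whole estimated counts in 0 of 6 libraries. NR1D2 shares no exonic base with NKIRAS1, which overlaps its span on the other strand and averaged 34.4 ± 2.25 TPM in shCRIP1 and 32.9 ± 2.47 TPM in shScramble (adjusted p = 0.363). Counts of NKIRAS1 were whole in 0 of 6 libraries as well. PER3, the member with the largest change, shares 868 exonic bases with UTS2, the gene of the peptide urotensin 2, and 482 with Z98884.1, both on the opposite strand. PER2 shares 188 exonic bases with AC012485.1 and CRY1 94 with AC078929.1, both on the opposite strand. PER1 shares 78 with MIR6883 and 30 with AC129492.3, both on its own strand. These neighbours of the PER and CRY genes were not among the 17918 genes under these names, so their expression could not be analysed.

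The activator arm is represented by ARNTL, the partner of CLOCK. ARNTL had 30.02, 29.16 and 30.85 TPM in shCRIP1 libraries and 30.27, 32.70 and 31.87 TPM in shScramble libraries. These ranges overlapped, with 2 of the shCRIP1 values below all shScramble values and the other inside their range. In counts the log2 fold change of ARNTL was -0.21 (SE 0.05), the smallest of the members in size, and it was -0.07 on log2(TPM + 1), where it did not pass the threshold (limma adjusted p = 0.193). On that scale all genes together had a median of 0.12, against 0.01 in the count fit.

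Set against ARNTL, the repressor transcripts were higher. The 7 repressors summed to 162 ± 1.33 TPM in shCRIP1 and 78.5 ± 1.33 TPM in shScramble (SD, n = 3 each). Their sum was 5.39 ± 0.177 times the ARNTL level in shCRIP1 and 2.48 ± 0.0591 times in shScramble. The REV-ERB pair was the larger part of that sum in shCRIP1, at 3.26 ± 0.169 times ARNTL, but not in shScramble, at 0.734 ± 0.0326 times. The PER and CRY genes together were at 2.13 ± 0.0445 times ARNTL in shCRIP1 and 1.75 ± 0.0337 times in shScramble, where they were the larger part.

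In the D-box arm, DBP and TEF encode PAR bZIP activators whose transcripts cycle in many tissues. DBP had 53.30, 59.69 and 61.75 TPM in shCRIP1 libraries and 12.95, 10.40 and 9.46 TPM in shScramble libraries. The groups were far apart, and the fitted difference was 4.98-fold (log2 fold change 2.31, SE 0.08), from 2.21 to 2.43 when 1 library at a time was left out. TEF had 16.45, 15.01 and 15.86 TPM in shCRIP1 libraries and 2.83, 3.24 and 3.35 TPM in shScramble libraries, a 4.57-fold difference (log2 fold change 2.19, SE 0.08). DBP was the more abundant of the pair throughout and made up 78.6 ± 1.92% of their sum in shCRIP1 and 77.4 ± 4.23% in shScramble.

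**Figure D4:**
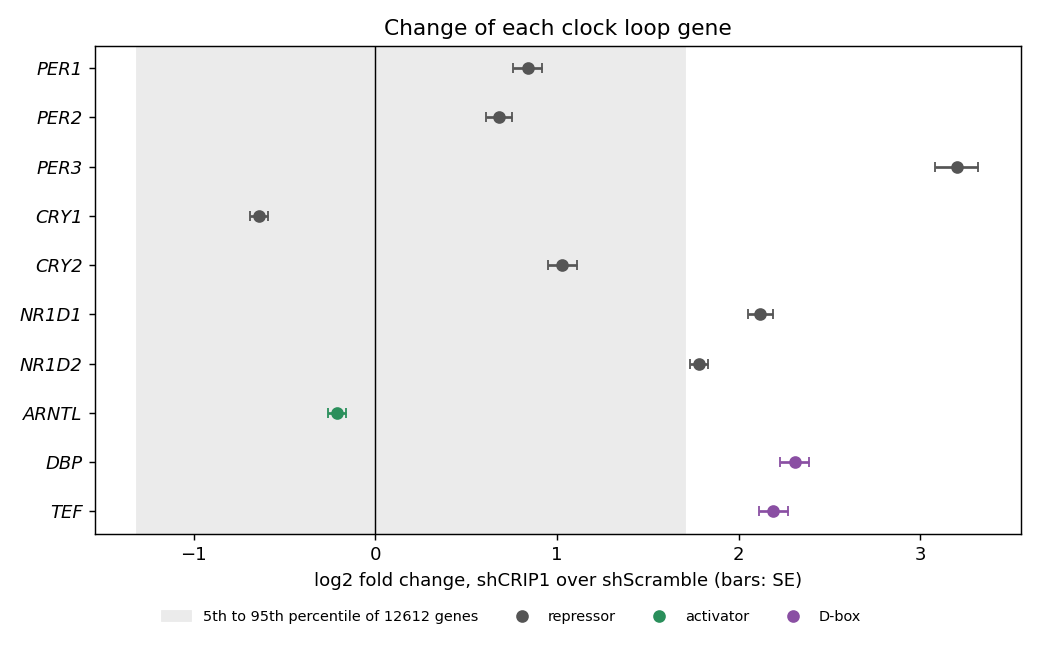
Log2 fold change of each clock loop gene, shCRIP1 over shScramble, with its SE (bars), coloured by arm. The shaded band runs from the 5th (-1.31) to the 95th (1.7) percentile of all genes tested, and PER3, NR1D1, NR1D2, DBP and TEF lie above it.

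The order of the members by level differed between the groups. In shCRIP1 the order from highest to lowest mean TPM was DBP (58.2 ± 4.41 TPM, SD, n = 3), NR1D1, NR1D2, ARNTL, CRY1, TEF, CRY2, PER1, PER3 and PER2 (6.52 ± 0.161 TPM). The ranges of DBP and NR1D1, of NR1D1 and NR1D2, of ARNTL and CRY1, and of PER1 and PER3 overlapped there. In shScramble it was CRY1 (41.0 ± 1.60 TPM), ARNTL, NR1D2, DBP, NR1D1, CRY2, PER1, PER2, TEF and PER3 (0.793 ± 0.126 TPM), with overlapping ranges for NR1D2 and DBP, DBP and NR1D1, and PER1 and PER2. CRY1 and ARNTL thus led in shScramble, and DBP and the REV-ERB genes led in shCRIP1.

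The length that each gene's counts and FPKM imply, an index of its transcript mix, was alike in the groups for most members. FPKM scales fragments by gene length and library size, so the count divided by it gives an effective length. NR1D1 came to 2351 ± 9.28 bases in shCRIP1 and 2353 ± 3.67 bases in shScramble, and CRY1 to 2741 ± 8.82 and 2741 ± 7.35 bases (SD, n = 3 each). The 2 groups overlapped for all 10 members. PER3 varied most, with 5835 ± 113 bases in shCRIP1 and 5565 ± 300.3 bases in shScramble, where its FPKM was only 0.39 to 0.53. Its log2 ratio was 0.07, and 8.76% of 10133 genes with FPKM of at least 1 in every library had a larger change in either direction. For DBP the log2 ratio was 0.04, and 15.6% of those genes had a larger change.

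Among other genes of the loop, CIART, HLF and BHLHE41 had the largest changes. Of 12 such genes listed, 10 were tested, of which 7 rose, 1 fell and 2 did not pass the threshold, with a median log2 fold change of 0.49 against 0.01 over all genes. The 8 of 10 called stand beside 77.6% of all genes, with 39.4% higher and 38.1% lower. CIART, a repressor of BMAL1 and CLOCK, rose to 6.13 ± 0.986 TPM in shCRIP1, against 0.987 ± 0.15 TPM in shScramble (SD, n = 3 each; log2 fold change 2.32, SE 0.23, edgeR adjusted p = 1.23e-08). HLF, the remaining PAR bZIP gene, stood at 1.46 ± 0.132 TPM in shCRIP1 and 0.327 ± 0.119 TPM in shScramble (2.1, SE 0.22, adjusted p = 2.86e-08). Both were scarce in shScramble, with 32 estimated counts for CIART and 50 for HLF over the 3 libraries. BHLHE41, whose protein DEC2 competes at E-boxes, averaged 38.0 ± 1.14 TPM in shCRIP1 and 16.4 ± 0.807 TPM in shScramble (1.07, SE 0.05, adjusted p = 1.17e-13). Its relative BHLHE40 rose by 0.18 on the log2 scale (SE 0.04, adjusted p = 0.000389).

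CLOCK, the partner of BMAL1, rose to 12.4 ± 0.601 TPM in shCRIP1, against 6.74 ± 0.618 TPM in shScramble (SD, n = 3 each; log2 fold change 0.77, SE 0.06, edgeR adjusted p = 5.54e-10). ARNTL2, a paralog of ARNTL, rose by the same 0.77 (SE 0.07, adjusted p = 5.71e-09), with 6.85 ± 0.0723 TPM in shCRIP1 and 3.65 ± 0.215 TPM in shScramble. NPAS2, which can stand in for CLOCK, had 4 counts over the 3 shCRIP1 libraries and 30 over the shScramble libraries and was not tested. Of the ROR receptors, RORB fell by 0.74 on the log2 scale (SE 0.05, adjusted p = 6.31e-12), with 9.99 ± 0.107 TPM in shCRIP1 and 15.1 ± 0.497 TPM in shScramble. RORA had a log2 fold change of 0.21 (SE 0.05, adjusted p = 0.00113) that turned to -0.06 with a trend by GC content removed. NFIL3, the repressor at D-boxes, averaged 106 ± 5.78 TPM in shCRIP1 and 101 ± 2.89 TPM in shScramble and did not pass the threshold (-0.07, SE 0.04, adjusted p = 0.139), nor did the CLOCK inhibitor CIPC (0.13, SE 0.09, adjusted p = 0.169). The summed level of DBP and TEF was 0.699 ± 0.00175 times that of NFIL3 in shCRIP1 and 0.139 ± 0.0164 times in shScramble.

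**Figure D5:**
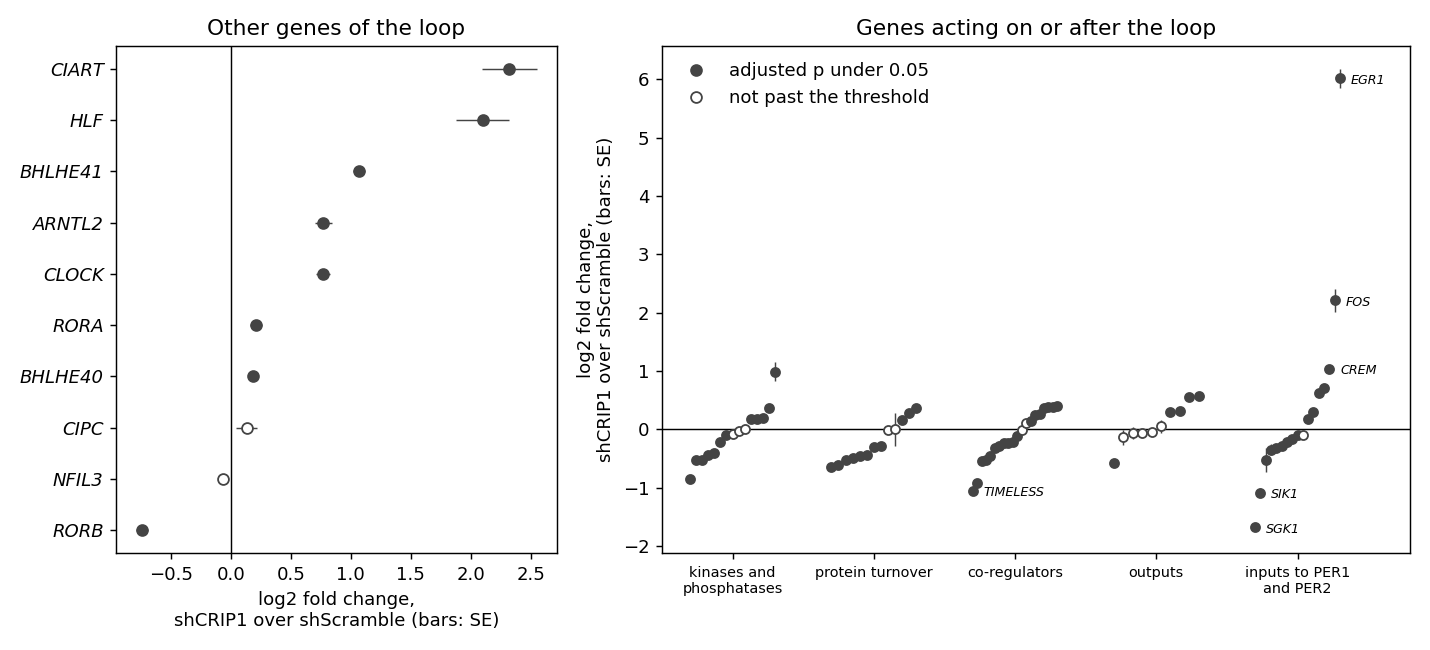
Log2 fold changes, shCRIP1 over shScramble, with SE (bars), of the 10 tested other loop genes (left) and of the tested genes of 5 lists that act on or after the loop (right), with filled points for an adjusted p under 0.05. CIART and HLF lead the loop genes at 2.32 and 2.1, and EGR1 stands highest among the inputs at 6.02.

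Lists of genes that act on or after the loop are given by their counts, beside the 39.4% of all genes that were higher and the 38.1% that were lower, and none is read as particular to its list. Of 15 enzymes that modify clock proteins (kinases and phosphatases), 5 rose, 7 fell and 3 did not pass, with a median of -0.08, or 2 rose with the GC trend removed. The casein kinases CSNK1D (-0.44, SE 0.04) and CSNK1E (-0.53, SE 0.05), which mark PER proteins for degradation, fell, as did the phosphatases PPP1CC (-0.86, SE 0.04) and PPP5C (-0.53, SE 0.04). Of 13 genes of clock protein turnover tested, 3 rose and 8 fell (39.4% and 38.1% of all genes), with a median of -0.31. USP7, a deubiquitinase that stabilises CRY1, fell by 0.62 (SE 0.03). SIAH2 (-0.64, SE 0.05) and HUWE1 (-0.52, SE 0.04), ubiquitin ligases of REV-ERB alpha, and the cullin CUL1 (-0.44, SE 0.03) were also lower. Of 20 co-regulators, 7 rose and 11 fell (39.4% and 38.1% of all genes), with a median of -0.17. NCOR1, the co-repressor that REV-ERB receptors recruit, fell to 15.1 ± 0.121 TPM in shCRIP1, against 26.0 ± 0.39 TPM in shScramble (SD, n = 3 each; -0.93, SE 0.04, edgeR adjusted p = 2.26e-14). TIMELESS, which also acts at replication forks, fell by 1.06 (SE 0.04), CHD4 by 0.55 (SE 0.03) and the demethylase KDM5A by 0.53 (SE 0.04).

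Of 10 genes tested that are described as outputs of the clock, 4 rose, 1 fell and 5 did not pass, with a median of 0.00. Of all genes, 39.4% were higher and 38.1% lower. WEE1, the kinase that holds cells before mitosis, averaged 77.0 ± 1.91 TPM in shCRIP1 and 47.9 ± 0.347 TPM in shScramble (SD, n = 3 each; log2 fold change 0.55, SE 0.04, edgeR adjusted p = 5.89e-11). KLF9 rose by 0.57 (SE 0.06) and NAMPT, which makes a precursor of NAD, by 0.31 (SE 0.03). With the GC trend removed, the log2 fold change of NAMPT was 0.06 and no longer passed (adjusted p = 0.0774). The nuclear receptor PPARA fell by 0.58 (SE 0.07).

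Of 17 genes tested among the inputs to the PER genes, which respond to cyclic AMP, glucocorticoids or serum, or transmit them, 7 rose and 9 fell (39.4% and 38.1% of all genes), with a median of -0.10, or 5 fell on log2(TPM + 1). The immediate early factor EGR1 stood at 17 ± 0.641 TPM in shCRIP1 and 0.233 ± 0.107 TPM in shScramble (SD, n = 3 each; log2 fold change 6.02, SE 0.16, edgeR adjusted p = 1.28e-17). NR3C1, the glucocorticoid receptor, rose by 0.70 (SE 0.04) and its target TSC22D3 by 0.62 (SE 0.03), while SGK1, another of its targets, fell by 1.68 (SE 0.05).

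The genes with a pattern most like the leading member of each arm were found by the root mean square distance of log2 CPM (counts scaled to the library total), centred on each gene's mean over the 6 libraries. Nearest to DBP were ZNF311 (distance 0.108), AOC2 (0.128) and CUBN (0.138), and NR1D1 came 13th at 0.155. Near to ARNTL were UBE2N (0.014) and CFL2 (0.018), among 1878 genes within 0.1. Nearest to PER3 were ZNF738 (0.139), SYTL4 (0.139) and ERICH2 (0.144), of which ZNF738 and SYTL4 were listed at 0 TPM in shScramble, where the prior count of 2 sets their distance. With 2 groups, likeness reflects mainly the size of the difference between them.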

How the data were processed

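Per the labels, total RNA of KMS11 cells was made into 6 libraries with a SMARTER kit. Sample titles gave each library its group and replicate number. The deposited table holds estimated counts, FPKM and TPM per gene and library, per the file headers. RSEM 1.2.8, HISAT2 2.1.0, Bowtie2 2.2.5 and GRCh38.p13 are listed in the submitters' processing notes, with no role or order. No source used here gives the annotation or strand setting. FPKM and TPM were used as deposited by the authors.

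Estimated counts were rounded and fitted with edgeR 4.0.16 in R 4.3.3 (filterByExpr by group with a minimum count of 10, TMM scaling, quasi-likelihood test of group alone), with p-values adjusted by Benjamini and Hochberg over 12612 genes and 0.05 as the threshold. SEs were obtained by dividing each absolute log2 fold change by the root of its F statistic. Alternatives used DESeq2 1.42.0 and limma 3.58.1. The members and lists were chosen with earlier results of these data known. The genes named are CRIP1, the members, genes that overlap them, all other loop genes, the 4 genes of smallest adjusted p in each other list, and 3 genes nearest in pattern to 1 member per arm, except 2 that are not reported here. The fit was tested on simulated data with the same spread for all genes. It recovered 46 of 67 changes of 1.25-fold, 55 of 67 of 1.5-fold and 62 of 66 of 2-fold, with 4 false calls. Far fewer genes were changed there than the 77.6% called here, so it cannot test the scaling in that setting. Marker genes are named where they were at 0 counts, except that only some of the 13 such erythroid genes are. Also named are the 4 tested fibroblast and endothelial markers, JCHAIN, and the 3 plasma cell and myeloma genes that rose. Libraries of a group differed by more than sampling noise (mean chi-square per gene 1.62 to 4.15, against 99.3 to 104 between groups). The fitted coefficient of variation beyond sampling noise was 3.33%. All libraries were kept as replicates, but this spread cannot show whether they were separate cultures. Positions, overlaps and GC content are from GENCODE 29, and promoter windows from RefSeq.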

Additional observations from a re-analysis of the deposited data

How the results depend on the processing

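Over 16 alternative settings, all 10 members kept their direction, and 158 of 160 member values stayed on their side of the threshold. The exception was ARNTL, not called on log2(TPM + 1) or log2(TPM + 0.1), where 1 member was called lower in place of 2. With the replicate number as a block, 9816 genes were called against 9783, and no count of list members moved by over 1.5 times. Deviations of same-numbered libraries correlated at -0.0133 to 0.0455, and those of differently numbered libraries at -0.0321 to 0.0444. No pairing by number was visible, but 3 libraries per group cannot show that same-numbered libraries shared no preparation. Counts of lower genes were 2 in place of 1 among the other loop genes without a low-count filter and with the GC trend removed, and 1 to 2 when 1 library was left out. With the GC trend removed, 2 kinases and phosphatases rose in place of 5 and 2 outputs fell in place of 1. Of the inputs, 5 fell on log2(TPM + 1) and 4 on log2(TPM + 0.1), in place of 9. NFIL3 turned to 0.02 on log2(FPKM + 1) and 0.06 on both TPM scales, NKIRAS1 to 0.02 and 0.07, and RORA to -0.06 with the GC trend removed. The share of called genes that were higher was 50.8%, 61.3% on log2(TPM + 1) and 43.1% with the GC trend removed, where the median of all genes was -0.08. The cause of these shifts was not tested.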

Other observations

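THRA, which overlaps NR1D1, differed in implied length. Its counts and FPKM gave 3020 ± 10.9 bases in shCRIP1 and 3883 ± 33.3 bases in shScramble (SD, n = 3 each), a log2 ratio of -0.36, and 0.414% of 10133 genes with FPKM of at least 1 in every library had a larger ratio in either direction. Its FPKM ratio, 0.98 on the log2 scale, was accordingly larger than its log2 fold change in counts, 0.53. For NR1D1 the lengths overlapped, so its 2 measures stood close, at 2.2 and 2.12. THRA was chosen as a neighbour of a member, and this difference was seen in the data and carries no test.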
